A study of Homo sapiens with 21 samples.

Results

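Cadherin transcripts were followed through a TGFβ time course in HMLE, an immortalized cell line from human mammary epithelium. The members were the rows of the normalized read count table with the symbols *CDH1*, *CDH2*, *CDH3*, *CDH4*, *CDH6*, *CDH11* and *CDH13*, 7 of 23201 gene symbols, and all 7 were found. The untreated cells (d0) were compared with cells of the same line on days 1, 4, 7, 10, 15 and 20 of TGFβ treatment (d1 to d20), a cytokine that induces epithelial-to-mesenchymal transition (EMT). No other genotype or agent is named in the labels, and no untreated library was taken on the later days, so treatment and time in culture cannot be told apart. Each timepoint had 3 libraries, 21 in all, called biological triplicates by the study, while the labels do not say whether they came from separate cultures. P-values therefore measure the spread between these libraries. Each deposited value was a read number scaled by the size factor of its library, and the recovered totals lay between 18847917 and 22667754 reads per library.

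Classical cadherins are calcium-dependent adhesion proteins that bind their like on the neighbouring cell and hold the cytoskeleton through β-catenin, α-catenin and p120-catenin. E-cadherin (*CDH1*) is the main cadherin of epithelial junctions and P-cadherin (*CDH3*) that of basal and myoepithelial mammary cells. N-cadherin (*CDH2*) and OB-cadherin (*CDH11*) are typical of mesenchymal cells, R-cadherin (*CDH4*) and K-cadherin (*CDH6*) of neural and kidney tissue, and T-cadherin (*CDH13*) has a lipid anchor in place of a cytoplasmic tail. The exchange of E-cadherin for N-cadherin is a textbook mark of EMT, driven by repressors such as ZEB1 and SNAI2 that bind E-box letters in the *CDH1* promoter.

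Before the results, the libraries were checked against each other and against cell type markers. The third d7 library stood apart. Its root mean square log2 distance to the other d7 libraries was 0.472 and 0.456, whereas those libraries were 0.223 apart and the 18 pairs within the other timepoints were 0.214 to 0.243 apart. It was nearer to the means of d4 (0.427) and d20 (0.431) than to the mean of its own timepoint mates (0.451), so most d7 values that rest on it are also given without it. All 8 basal mammary markers were above the floor of 3 reads on every day, led by *KRT5* with a mean of 224349 on d0. Of the 8 luminal markers, *PGR* was at the floor on every day, and the list was led by *KRT7*. The endothelial markers *CDH5* and *CLDN5* and the blood cell markers *PTPRC*, *CD3E* and *HBB* were at the floor on every day. The markers did not go against the label of a mammary epithelial line.

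Of the 7 cadherins, 6 had a mean value of at least 10 and were tested with limma, on log2(value + 1) with Benjamini-Hochberg adjustment over 13343 genes. *CDH6* never exceeded the floor of 3 reads in any of the 21 libraries and was not tested. *CDH2*, *CDH4*, *CDH11* and *CDH13* were higher than in untreated cells on all 6 days. *CDH1* was lower on d4, d10, d15 and d20. *CDH3* was higher on d1, d4, d7 and d15 and lower on d20. In bulk RNA, fewer cells of a type and less RNA per cell cannot be told apart.

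On d1, 5 of the 6 tested cadherins were higher and 0 lower, where 31.3% of all genes tested were higher and 28.5% lower. On d4, 5 were higher and 1 was lower, beside a background of 36.9% and 35.3%. On d7, 5 were higher and 0 lower (background 34.6% and 32.6%), and 6 were higher and 0 lower without the third d7 library (background 36.8% and 34.4%). The median log2 fold change of the 6 cadherins on these days was 1.46, 2.11 and 1.94, and that of all genes tested was between 0.00 and 0.01. On d10, 4 were higher and 1 was lower (background 37.0% and 30.7%). On d15, 5 were higher and 1 was lower (background 39.2% and 37.3%), and on d20 4 were higher and 2 lower (background 32.5% and 30.2%). The median over the cadherins was 2.18, 2.47 and 2.29 on these later days, against 0.03, 0.01 and 0.00 over all genes tested. Most genes tested passed the threshold against d0 on every day, so the counts are to be read against that background.

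**Figure D1:**
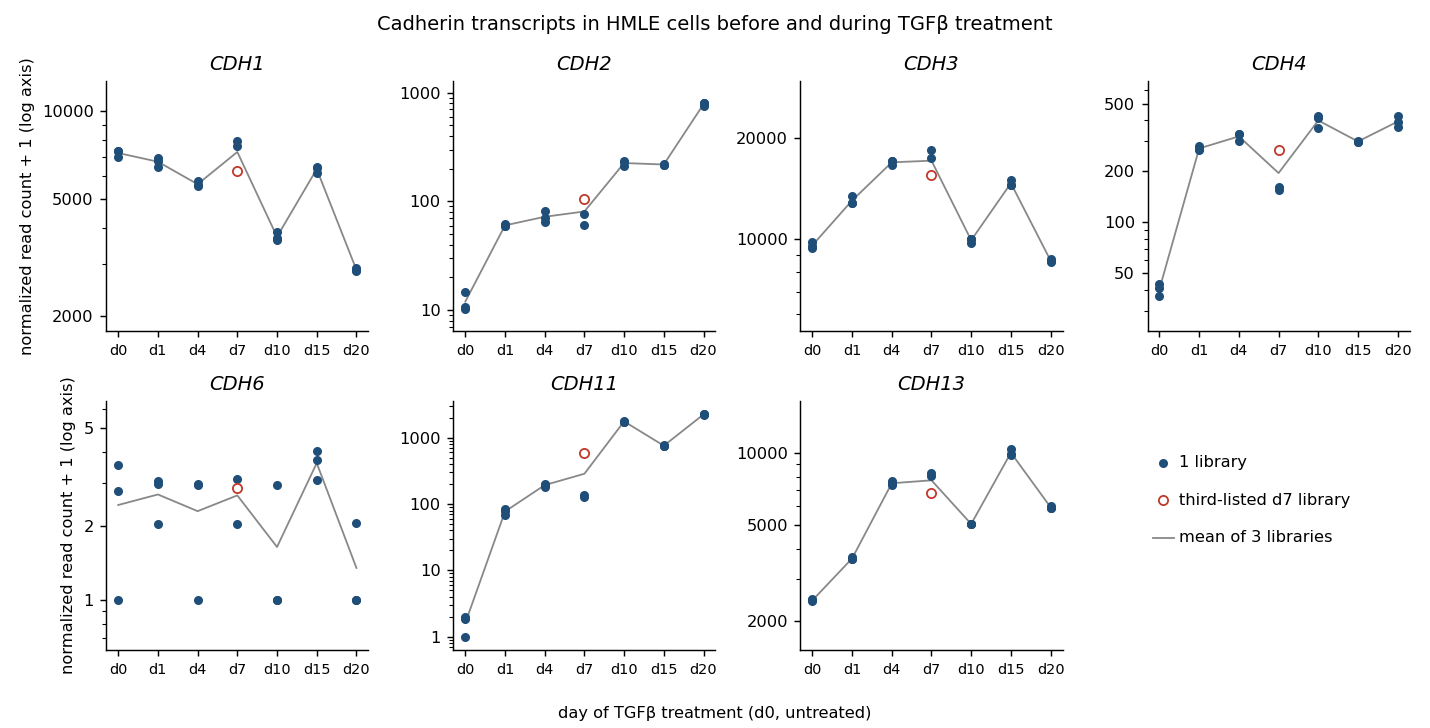
Normalized read count + 1 (log axis, each panel with its own range) of the 7 cadherins in each of the 21 libraries by day of TGFβ treatment, with the line through the mean of 3 libraries and the third d7 library as an open circle. *CDH1* ended at a mean of 2868 from 7195, *CDH2* and *CDH11* ended at their highest means, 782 and 2238, and *CDH3* and *CDH13* rose and then came down.

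*CDH1*, which encodes E-cadherin, was abundant at the start and was still abundant at the end. Its normalized read counts were 7314, 6946 and 7324.5 on d0, 6781, 6904 and 6463 on d1, and 5764, 5576 and 5544 on d4. They were 7923, 7599 and 6240 on d7, 3618, 3689 and 3855 on d10, 6468, 6395 and 6149 on d15, and 2838, 2910 and 2857 on d20. The fall did not run in one direction: the d7 libraries overlapped with d0, all d15 libraries lay above all d10 libraries, and d20 held the lowest 3 values of the course. The log2 fold change against d0 was -0.95 on d10 (SE 0.0582, limma adjusted p = 5.066e-12) and -1.33 on d20 (adjusted p = 1.698e-14), a level 2.51-fold lower than in untreated cells. It was -0.35 on d4 (adjusted p = 1.387e-05) and -0.18 on d15 (adjusted p = 0.00738).

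On d1 the log2 difference of *CDH1* was -0.10 (adjusted p = 0.1476), although no d1 library overlapped with d0, and it passed the test after quantile normalization (-0.31) or with equal library totals (-0.29). Relative to the median of all genes tested under each scaling, it was -0.25 after quantile normalization and -0.10 with equal totals, the latter as in the deposited scaling. On d7 it was 0.00 (adjusted p = 0.9499). Without the third d7 library the d7 mean was 7761 ± 229 (SD, n = 2) and the log2 difference was 0.11 (adjusted p = 0.005315). In the order of the means, d20, d10 and d4 each differed from the next, and d4 from d15 (adjusted p = 0.0159). The neighbours d15 and d1 (adjusted p = 0.1966), d1 and d0, and d0 and d7 did not pass the test.

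*CDH2*, which encodes N-cadherin, rose in steps from a low base. The untreated libraries held 9.79, 9.33 and 13.9 normalized reads, the d1 libraries 60.7, 58.5 and 58.6, and the d4 libraries 81.0, 69.1 and 63.7. The d7 values were 74.9, 59.4 and 105.2, the highest being the third library. The next step came on d10, with 211.0, 234.2 and 227.8, and d15 was at the same level, with 216.3, 215.3 and 220.6. On d20 the values were 797.1, 797.8 and 751.1. Every treated library lay above every untreated one, and no libraries overlapped between d1 to d7, d10 with d15, and d20. The mean was 5.39-fold higher than d0 on d1, 20.4-fold on d10 and 71.2-fold on d20. The log2 fold changes at these days were 2.35, 4.25 and 6.05 (SE 0.156, limma adjusted p = 2.847e-11, 8.501e-16 and 1.622e-18). Neither d4 against d1 (adjusted p = 0.1569), d7 against d4 (0.5086) nor d15 against d10 (0.8017) passed the test. The d7 level passed against d1 (log2 difference 0.39, adjusted p = 0.03554), but not without the third d7 library (0.17, adjusted p = 0.2782).

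*CDH11*, which encodes OB-cadherin, went furthest, from 0, 1 and 1 reads in the untreated libraries to the level of a well expressed gene. Its normalized read counts were 84.7, 67.7 and 76.4 on d1 and 179.8, 201.6 and 194.9 on d4. They were 125.6, 135.5 and 594.7 on d7, 1740, 1732 and 1810.0 on d10, 768.1, 751.6 and 749.0 on d15, and 2184, 2260 and 2270 on d20. Since d0 was at the floor, the rise was given against 3 reads per library: the mean was at least 27.96-fold higher on d1, at least 645-fold on d10, at least 277-fold on d15 and at least 820-fold on d20. The third d7 library held over 4 times the value of either mate. With it, d7 did not pass the test against d4 (log2 difference 0.17, adjusted p = 0.7105), and without it d7 was lower than d4 (log2 difference -0.55, adjusted p = 0.001513). The d15 libraries lay below all d10 libraries (log2 difference -1.22, SE 0.356, adjusted p = 0.003827), and d20 lay above d15 by 1.56 (adjusted p = 0.0004973). The test of d20 against d10, 0.35 with adjusted p = 0.45, was not passed even though no d10 library reached the lowest d20 library.

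*CDH4*, which encodes R-cadherin, took most of its rise within the first day. It was at 40.1, 35.6 and 42.5 in the untreated libraries and at 269.9, 265.6 and 279.9 on d1. The values were 301.8, 329.1 and 330.0 on d4, 154.1, 161.6 and 267.1 on d7, and 425.0, 409.1 and 359.8 on d10. They were 296.9, 298.5 and 301.4 on d15 and 424.0, 362.0 and 389.7 on d20. No treated library overlapped with d0, and beyond d1 the means stayed between 194.3 (on d7, or 157.8 without the third library) and 398.0. The log2 fold change was 2.76 on d1 and 3.28 on d20 (SE 0.137, adjusted p = 1.868e-13 and 6.898e-15), or 6.90-fold and 9.95-fold. The dip on d7 (log2 difference to d4 -0.76, adjusted p = 9.836e-05) was deeper without the third library, at -1.02. In the order of the means, d7 was below d1 (adjusted p = 0.002011). The next neighbours d1 and d15, d15 and d4, d4 and d20, and d20 and d10 did not pass the test (adjusted p between 0.06845 and 0.9139), although only the last of these pairs overlapped.

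The repressors of *CDH1* are known to bind the E-box letters CAGGTG, so the promoter windows of RefSeq (GRCh38.p14, 250 bases before to 50 after a gene start) were read for this hexamer and its reverse complement CACCTG. Of the 7 members, *CDH2* and *CDH4* had entries in that table, with 2 windows each. Of these 4 windows, 1 held a match, in *CDH4* on the plus strand of chr20:61499171-61499470, at an annotated start that lies inside the gene, downstream of its outermost annotated start. The match lay 16 bases before this start, and it is shown with its flanks (chr20:61499393-61499422, the hexamer in capitals):
*CDH4*: gggactggggtgCAGGTGtgcctggttcag
One or the other orientation was in 7231 of all 35116 windows (20.6%), so a match in 1 of 4 windows is a description of the letters and not of a bound site.

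*CDH3*, which encodes P-cadherin, was the most abundant cadherin transcript on every day, also per length. Its normalized read counts were 9409, 9577 and 9846 on d0, 13468, 12834 and 12833 on d1, and 17054, 17073 and 16652 on d4. They were 18416, 17434 and 15496 on d7, 9775, 10020.3 and 10045 on d10, 14977, 14520.3 and 14542 on d15, and 8577, 8757 and 8638 on d20. The level climbed until d4 and d7, came back on d10 to a level that overlapped with untreated cells, 2 of the 3 libraries lying above them, rose again on d15 and ended just under d0. The log2 fold change was 0.44 on d1, 0.82 on d4, 0.83 on d7 and 0.61 on d15 (SE 0.0443, adjusted p between 5.746e-13 and 2.407e-08), or 1.78-fold on d7. Without the third d7 library it was 0.90 on d7. On d10 it was 0.05 (adjusted p = 0.3304), or -0.23 after quantile normalization, and on d20 -0.15 (adjusted p = 0.005668).

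*CDH13*, which encodes T-cadherin, was the third cadherin of untreated cells. Its normalized read counts were 2411, 2461 and 2434 on d0, 3630.5, 3613 and 3683 on d1, and 7662.5, 7489 and 7341 on d4. They were 8285, 8041 and 6809 on d7, 5076, 5053 and 5079 on d10, 10370.3, 9838 and 9946 on d15, and 6014, 5918 and 5933 on d20. Every treated library was above every untreated one, and the highest level came on d15, 4.13-fold above d0. The log2 fold change was 0.58 on d1, 1.62 on d4, 1.06 on d10, 2.05 on d15 and 1.29 on d20 (SE 0.048, adjusted p = 1.083e-09 on d1 and smaller on the other days). In the order of the means, d4 and d7 were the neighbours that did not pass the test (adjusted p = 0.56), and without the third d7 library d7 was 0.12 above d4 (adjusted p = 0.0006803).

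*CDH6* stayed silent at this depth. It had between 0 and 3 reads in each of the 21 libraries, and its mean value was highest on d15, 2.61 ± 0.502 (SD, n = 3), which lies under the value of 3 reads there. The floor covers counting error only.

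*CDH3* and *CDH1* are direct neighbours among the protein-coding genes of chromosome 16 in the RefSeq annotation, and *CDH11* and *CDH13* lie elsewhere on the same chromosome. Despite that closeness the pair moved apart in the first days. On d4, *CDH3* was 0.82 above and *CDH1* 0.35 below d0 on the log2 scale. From d7 on they stepped in the same direction: both were lower on d10 than on d7, higher on d15 than on d10 and lower on d20 than on d15. The ratio of *CDH3* to *CDH1* reads was 1.34 ± 0.0467 on d0, 3.01 ± 0.0519 on d4, 2.37 ± 0.102 on d7 (2.31 without the third library) and 3.02 ± 0.00778 on d20 (SD, n = 3).

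The steps from one timepoint to the next divided the cadherins differently before and after d7. From d1 to d4, 3 cadherins rose (*CDH3*, *CDH11* and *CDH13*) and 1 fell (*CDH1*), where 32.9% of all genes tested were higher and 32.0% lower. From d4 to d7, *CDH1* rose and *CDH4* fell (background 25.5% higher and 25.5% lower). Without the third d7 library, 3 rose (*CDH1*, *CDH3* and *CDH13*) and 2 fell (*CDH4* and *CDH11*) in that step (background 29.2% and 30.1%). From d7 to d10, *CDH2*, *CDH4* and *CDH11* rose while *CDH1*, *CDH3* and *CDH13* fell (background 36.2% and 35.2%). From d10 to d15 the last 3 rose again, while *CDH4* and *CDH11* fell (background 39.3% and 40.5%). From d15 to d20 the d10 pattern came back, with *CDH2*, *CDH4* and *CDH11* higher and *CDH1*, *CDH3* and *CDH13* lower (background 37.7% and 36.3%). The *CDH4* step of 0.39 did not pass without the first d20 library (0.33, limma adjusted p = 0.06412). For *CDH1*, the step was -0.96 from d7 to d10, 0.77 from d10 to d15 and -1.14 from d15 to d20 on the log2 scale. For *CDH11* the same steps were 3.02, -1.22 and 1.56. Without the third d7 library the step from d7 to d10 was -1.06 for *CDH1* and 3.74 for *CDH11*. These comparisons share the d10 and d15 libraries, so a rise after a fall is in part given by construction.

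Other transcripts alternated on these days too. The summed value of the 8 basal markers was 379601 on d0, 551796 on d1 and 606105 on d4. It was 769724 ± 196832 (SD, n = 3) on d7, where the libraries differed, 464361 on d10, 713541 on d15 and 518818 on d20, high on the same days as *CDH1*, *CDH3* and *CDH13*. The 8 luminal markers summed to 48913 on d7, 102650 on d10, 56187 on d15 and 69798 on d20, and *KRT7* gave most of that sum. The luminal keratin *KRT18* was, like *KRT7*, higher on d10 (7212) than on d7 (3293), d15 (4360) and d20 (4872), whereas *KRT8* was at 8029 on d7, 4988 on d10, 11259 on d15 and 7818 on d20, and *KRT19* at 581.7, 252.4, 440.9 and 347.3. The summed endothelial markers, all low, were 182.0 on d7, 35.0 on d10, 282.8 on d15 and 52.7 on d20, led by *KDR* on d7 and d15. Without the third d7 library the d7 sums were 882184 basal, 39916 luminal and 232.4 endothelial. The d7 means were then 2774 for *KRT18*, 7969 for *KRT8* and 656.6 for *KRT19*. The summed blood cell markers were 642.0 on d7 (686.1 without the third library), 391.7 on d10, 773.5 on d15 and 658.8 on d20, led by *CD68*, with *PTPRC*, *CD3E* and *HBB* at the floor. Median depth was 20194412 reads on d7, 22036979 on d10, 20313923 on d15 and 20095928 on d20. The part of these differences in the alternation was not tested.

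The makeup of the cadherin pool shifted without a change of its largest member. The summed value of the 7 cadherins was 19293 ± 329 on d0, 23812 ± 453 on d1 and 30637 ± 466 on d4 (SD, n = 3). It was 32642 ± 2818 on d7 (34206.5 without the third library), 21120 ± 267 on d10, 32344 ± 658 on d15 and 20893 ± 97.1 on d20. In the deposited scaling all d20 sums lay above all d0 sums, and the pool was differently composed. The value summed over all genes was also higher on d20, at 21131079 to 21269281 per library. On d0 it was 18266631 to 18648067, so the order of the cadherin sums depends on the scaling. By reads, *CDH1* went from 37.3% ± 0.814 of the sum on d0 to 28.2% on d1 and 18.4% on d4. It was 22.2% on d7 (22.7% without the third library), 17.6% on d10, 19.6% on d15 and 13.7% ± 0.118 on d20. *CDH3* held 49.8% ± 0.679 on d0, 55.2% on d4 and 41.4% ± 0.262 on d20. *CDH13* went from 12.6% ± 0.280 to 28.5% ± 0.347, with its highest share, 31.1%, on d15. The mesenchymal and neural members together were a trace on d0 and a visible part on d20: *CDH11* went from 0.00317% to 10.7% ± 0.210, *CDH2* from 0.0568% to 3.74% ± 0.121 and *CDH4* from 0.204% to 1.88% ± 0.156.

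**Figure D2:**
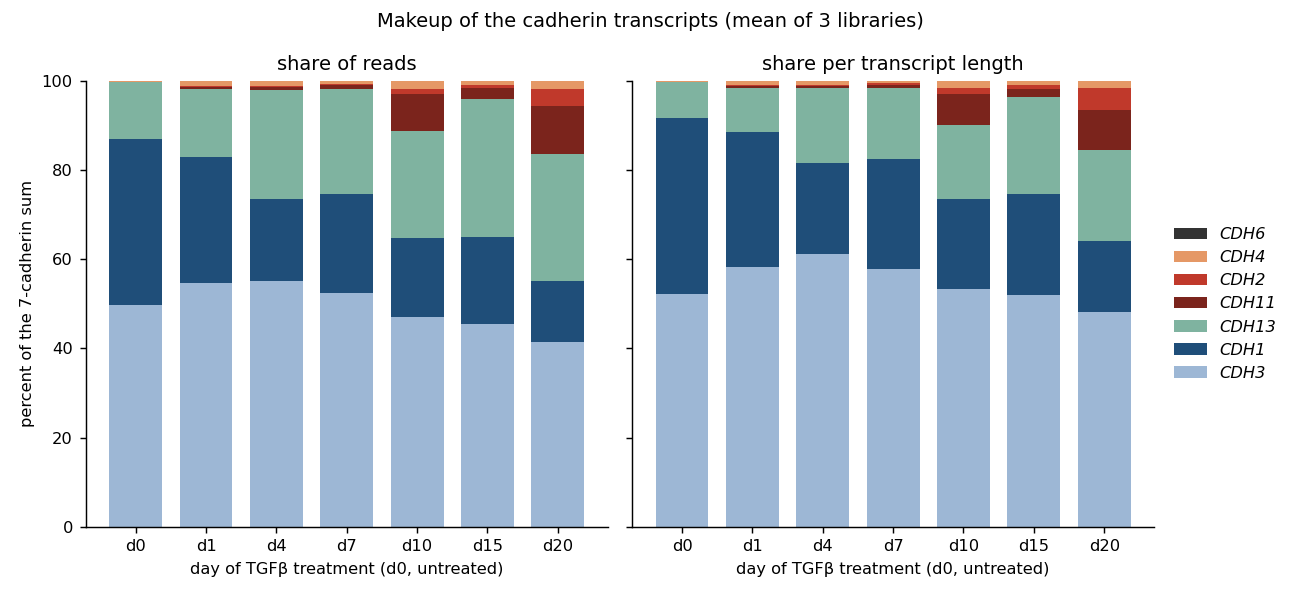
Percent of the 7-cadherin sum held by each cadherin (stacked bars, mean of 3 libraries) by day of TGFβ treatment, by reads on the left and after division by transcript length on the right. *CDH3* is the largest block on every day, *CDH1* is at 37.3% on d0 and 13.7% on d20 by reads, and *CDH11* becomes visible on d10 (8.33%), d15 (2.34%) and d20 (10.7%).

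Levels of different genes were compared per length of the longest annotated coding transcript, from 4332 bases for *CDH2* to 8476 for *CDH6*. Per transcript length, the d20 shares were *CDH3* 48.1%, *CDH13* 20.3%, *CDH1* 16.1%, *CDH11* 8.92%, *CDH2* 4.95% and *CDH4* 1.65%. The order on d20 was the same by reads, per transcript length and per coding length. On d0 the order was *CDH3* (52.2%), *CDH1* (39.4%) and *CDH13* (8.11%), with each of the others under 0.2%. The day on which *CDH13* overtook *CDH1* depended on the length used: by reads it was ahead from d4 on, and per transcript length on d20 alone, where d15 still held 22.6% of *CDH1* and 21.8% of *CDH13*. The 7 members made up at least 95.6% of the summed value of all CDH-numbered cadherins at each timepoint.

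**Figure D3:**
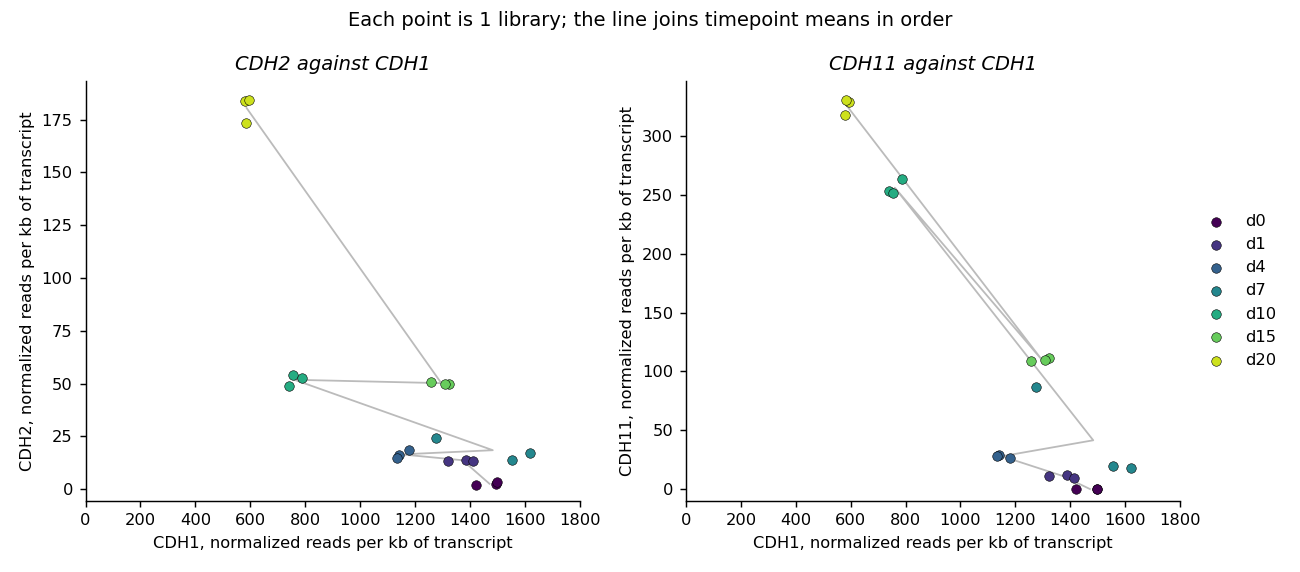
*CDH2* (left) and *CDH11* (right) against *CDH1*, all as normalized reads per kb of transcript on linear axes, with 1 point per library, colours for the day and a line joining the timepoint means in order. After d7, *CDH1* moves to the left on d10, back to the right on d15 and to its leftmost place on d20. On d20 *CDH2* reaches 30.8% and *CDH11* 55.5% of the *CDH1* level.

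The classical pair did not change places within the 20 days. Per transcript length, the *CDH2* level was 0.172% ± 0.0358 of the *CDH1* level on d0, 0.996% ± 0.0354 on d1 and 1.43% ± 0.147 on d4 (SD, n = 3). It was 1.28% ± 0.543 on d7 (0.975% without the third library), 6.81% ± 0.314 on d10, 3.87% ± 0.153 on d15 and 30.8% ± 1.03 on d20. *CDH11* came closer to *CDH1* than *CDH2* did from d4 on, with 33.7% ± 0.467 on d10, 8.49% ± 0.156 on d15 and 55.5% ± 0.912 on d20. On d20 the level of *CDH1* was 586.7 ± 7.66 normalized reads per kb of transcript, that of *CDH11* 325.5 ± 6.86 and that of *CDH2* 180.5 ± 6.18, with no overlap between libraries.

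The other CDH-numbered cadherins contributed little. Of 16 listed, 3 were tested. *CDH24*, a classical cadherin with wide expression, was at 753.0 ± 30.6 on d0 and 731.1 ± 62.7 on d20, and it was lower on d1 (log2 fold change -0.42), d4 and d10. *CDH10* was at 11.1 on d0, at the floor on d1 and d10 and at 5.34 on d4. It was highest on d7, at 50.3 (70.3 without the third library), and at 32.8 on d15 and 17.4 on d20. *CDH26* was lower on d10 (log2 fold change -1.04, adjusted p = 0.008688) and d20 (-1.105, adjusted p = 0.006494).

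The known repressors of *CDH1* rose with few exceptions. Of 11 listed, 9 were tested, and 8 were higher and 1 lower on d20, where 32.5% of all genes tested were higher and 30.2% lower. The median log2 fold change was 1.96 against 0.00 for all genes. On d15 9 were higher, and on d1, d4, d7 and d10 8 were (9 on d7 without the third library), with a background between 31.3% and 39.2% higher. On d1 and d10 1 was lower, which was *KLF8* (-0.33 and -0.78). *ZEB1*, a zinc-finger repressor, was at 6.23, 5.94 and 4.95 on d0 and 422.9, 434.7 and 441.6 on d20, a log2 fold change of 6.02 (SE 0.189, adjusted p = 5.133e-17). Its relative *ZEB2* rose by 3.15 and the forkhead factor *FOXC2* by 3.92 on d20, from d0 means of 15.8 and 3.01. *SNAI2*, which encodes Slug, had its highest change on d4, 2.73, from a mean of 1248 to 8254. *SNAI1*, which encodes Snail, had means between 0.613 and 1.93 and *GSC* had no read in any library, so neither was tested. *KLF8* was also the repressor that was lower on d20, with a log2 fold change of -0.78. *TCF3*, named after its values were seen, was higher on d20 as deposited (0.19), and at -0.0078 with equal library totals.

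The epithelial transcription factors that act on *CDH1* were mostly lower, with *KLF4* as the exception on d20. Of 9 listed, 8 were tested, and 7 were lower and 1 higher on d20, with a median log2 fold change of -2.07 (background 30.2% lower and 32.5% higher). On d1 5 were lower and 1 was higher, on d4 6 and 2, on d7 5 and 1 (6 and 2 without the third library), on d10 6 and 1, and on d15 7 and 1 (background between 28.5% and 37.3% lower on these days). The second higher gene on d4 was the ETS factor *EHF* (0.84), which did not pass on d1 and d7 (0.45, higher, on d7 without the third library) and was lower from d10 on, most of all on d15 (-2.01). The largest falls were in the grainyhead factor *GRHL3* (-4.34 on d10), the ETS factor *ELF3* (-4.15 on d10), *GRHL1* (-3.19 on d20) and *OVOL1* (-3.11 on d10). *GRHL3* went from a mean of 129.4 on d0 to 32.1 on d1, 31.6 on d4, 64.6 on d7, 5.56 on d10, 32.2 on d15 and 19.6 on d20. *ELF3* went from 226.9 to 37.8 on d1, 83.0 on d4, 30.6 on d7, 12.1 on d10, 41.0 on d15 and 16.4 on d20. Without the third library the d7 mean was 83.4 for *GRHL3* and 27.8 for *ELF3*. *GRHL1* was at 37.5 on d1, 18.97 on d10 and 19.3 on d15. *KLF4* was higher on all 6 days, with 305.6 on d0 and 1091 on d15.

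**Figure D4:**
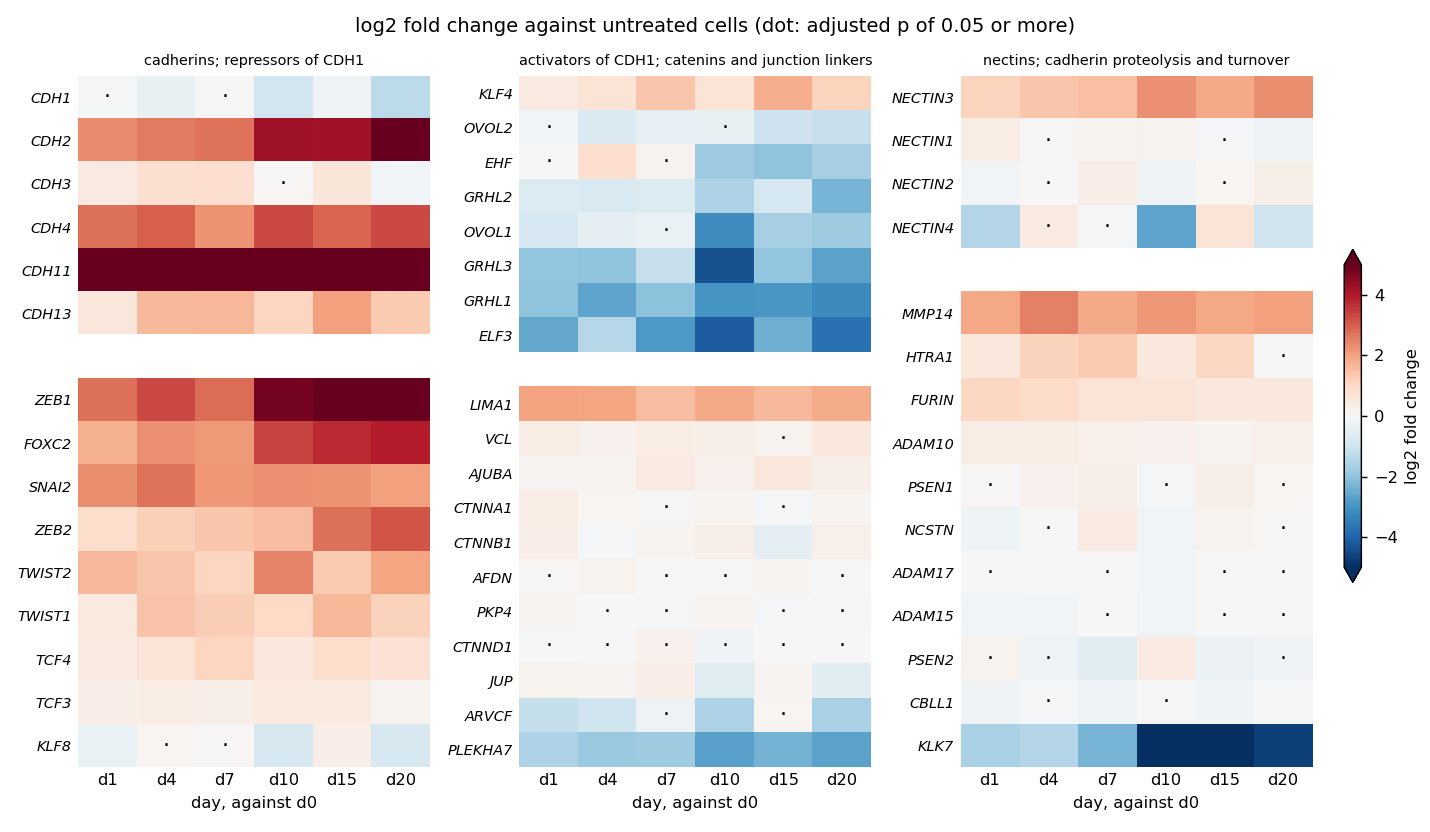
Log2 fold change against d0 (colour, from blue for lower to red for higher, the scale ending at 5 in both directions) of the 6 tested cadherins and of the tested genes of the repressor, activator, catenin, nectin and proteolysis lists by day, with a dot where the limma adjusted p was 0.05 or more. *ZEB1* and *CDH2*, at 6.02 and 6.05 on d20, are past the end of the scale there. *CDH11* is past it on every day (5.64 on d1, 10.5 on d20), and *KLK7* is at its largest fall, on d10 (-5.07). Within the catenin list *LIMA1* is red on every day and *PLEKHA7* blue. The colour of *CDH11* depends on the pseudocount because its d0 libraries were at the floor.

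The catenins and linkers that tie cadherins to actin went both ways. Of 14 listed, 11 were tested, and on d20 5 were higher (*LIMA1*, *VCL*, *AJUBA*, *CTNNB1* and *CTNNA1*) and 3 lower (*PLEKHA7*, *ARVCF* and *JUP*), with a median log2 fold change of 0.01. With 32.5% of all genes tested higher and 30.2% lower that day, these counts were near the background. The counts of higher and lower genes were 7 and 2 on d1, 6 and 3 on d4, 5 and 1 on d7, 6 and 3 on d10, and 4 and 2 on d15, where between 31.3% and 39.2% of all genes tested were higher and between 28.5% and 37.3% lower. They were 5 and 3 on d7 without the third library. With equal library totals, which move all genes down, the counts were 3 and 3 on d1 (background 18.3% higher and 50.2% lower), 1 and 4 on d4 (25.8% and 49.5%) and 3 and 4 on d7 (22.7% and 49.1%). They were 2 and 5 on d10 (21.5% and 50.5%), 2 and 4 on d15 (30.3% and 47.2%), and 3 and 5 on d20 (19.9% and 50.8%). The sizes at the top were those of *PLEKHA7*, a zonula adherens linker (-2.70 on d10, from a mean of 118.5 on d0 to 17.6), *LIMA1*, an actin-binding protein (2.02 on d1), and *ARVCF*, a p120-like catenin (-1.61 on d20). *JUP*, which encodes plakoglobin, was lower on d10 (-0.61) and d20 and higher on d7 (0.32, or 0.41 without the third library). It also passed as higher on d1, d4 and d15, by 0.13 to 0.16, but was between -0.11 and -0.01 on these days, and not past the threshold, with equal library totals or quantile normalization. *CTNNB1*, which encodes β-catenin, had a log2 fold change of 0.27 on d20 and of -0.47 on d15, both past the threshold. *CTNND1*, the p120-catenin gene, named after its values were seen, was at 74.0 on d0 and 74.9 on d20, a value that is uncertain because a readthrough gene, *TMX2-CTNND1*, overlaps it.

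Among the 4 nectins, the junction proteins that act beside cadherins, 2 were higher (*NECTIN2* and *NECTIN3*) and 2 lower (*NECTIN1* and *NECTIN4*) on d20, or 1 and 2 with equal library totals (background 32.5% higher and 30.2% lower as deposited, 19.9% and 50.8% with equal totals). *NECTIN3* was higher on all 6 days, from 28.2 on d0 to 142.1 on d20 (log2 fold change 2.33). *NECTIN4*, which is epithelial, was at 225.8 on d0, 81.7 on d1 (-1.46), 303.0 on d4, 227.3 on d7 (278.6 without the third library), 35.6 on d10 (-2.64), 350.5 on d15 and 113.0 on d20, so it was low on d1, d10 and d20. *NECTIN1* was 0.37 higher on d1 and *NECTIN2* 0.32 higher on d7 (0.28 without the third library).

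Of 13 genes for cadherin proteolysis and turnover, 11 were tested, and 3 were higher (*MMP14*, *FURIN* and *ADAM10*) and 2 lower (*KLK7* and *CBLL1*) on d20, or 2 and 8 with equal library totals (background 19.9% higher and 50.8% lower). As deposited this was no more than the background of 32.5% higher and 30.2% lower. On the earlier days between 4 and 6 were higher and 3 or 4 were lower (background between 31.3% and 39.2% higher and between 28.5% and 37.3% lower). With equal library totals between 3 and 5 were higher and 5 or 6 lower on these days (background between 18.3% and 30.3% higher and between 47.2% and 50.5% lower). *MMP14*, a membrane-bound matrix metalloprotease, went from 5855 on d0 to 33470 on d4, a log2 fold change of 2.52 (SE 0.0308, adjusted p = 3.204e-24). *KLK7*, a kallikrein protease, fell by 5.07 on the log2 scale on d10, from a mean of 516.3 to 16.4. *HTRA1*, a secreted serine protease, was 1.31 higher on d7 (1.46 without the third library). *FURIN*, which removes the cadherin prodomain, was 1.03 higher on d1. The main sheddase of E-cadherin, *ADAM10*, was 0.35 higher on d1 and 0.26 higher on d20. Its d20 call was lost with equal library totals, which left *MMP14* and *FURIN* as the 2 higher genes.

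For each tested cadherin, the 3 genes most like it were taken by Pearson's r of log2(value + 1) over the 21 libraries, among 11490 genes with a mean of at least 50. The points share timepoints, so r is a description. *CDH1* was followed by *HR* (0.97), *GRHL2* (0.95) and *PRRG4* (0.94), of which *GRHL2* encodes a known activator of *CDH1*. *CDH2* was followed by *ZEB1* (0.98), *GREM1* (0.98) and *THY1* (0.98), and *CDH11* by *CAMK4* (0.99), *THY1* (0.98) and *GREM1* (0.97). *GREM1*, which encodes a secreted BMP antagonist, had no read in the untreated libraries and a mean of 779.8 on d20. *CDH3* was followed by *RNF128* (0.97), *GPR56* (0.97) and *DENND2C* (0.96), *CDH4* by *CCBE1* (0.99), *TMED9* (0.99) and *SCG5* (0.98), and *CDH13* by *ATHL1* (0.98), *CTIF* (0.98) and *FBLN7* (0.98). No gene was among the 3 of both *CDH1* and *CDH3*, or of both *CDH3* and *CDH13*. Between the members themselves, r over the 21 libraries was 0.94 for *CDH2* and *CDH11*, 0.93 for *CDH4* and *CDH11*, 0.63 for *CDH1* and *CDH3*, and -0.79 for *CDH1* and *CDH2*.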

How the data were processed

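RNA-seq libraries of untreated and TGFβ-treated HMLE cells were used, 3 for each of 7 timepoints. The authors deposited a table of normalized signal per gene symbol, in which reads had been divided by one size factor per library and rounded. The submitters' processing notes name STAR 2.7, Salmon 1.4 and the build hg19, and the test used by the study for these libraries is not given in the sources used here. Whole reads were recovered for 100% of values in every library (tolerance 0.006). Column headers give the timepoint and no replicate number, and the third d7 library is the third d7 column of the table.

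The 13343 genes that averaged 10 or more were fitted by limma 3.58.1 under R 4.3.3, with log2(value + 1) as the response, a trended empirical Bayes step and all 21 libraries in one fit. P-values were adjusted by Benjamini-Hochberg over these genes in each contrast, with a threshold of 0.05 and no minimum fold change. The floor was 3 reads per library. Fold changes are on the log2(value + 1) scale, which understates the change of low genes. The scripts were tested on simulated data. Alternatives were a pseudocount of 10, no filter (19546 genes), equal library totals, quantile normalization, a fit of the 2 compared timepoints, edgeR 4.0.16 and DESeq2 1.42.0 on the recovered reads, a fold change of at least 2, each library left out, and other denominators for the shares. The members, gene lists and tests were chosen with earlier results of these data known. Named genes are the members, the 4 genes per list with the largest change on any day, those that complete a count of 5 or fewer on d20 or, for higher activators, on d4, the 3 genes most like each cadherin, and genes said to be named after their values were seen. Lengths came from GENCODE v29 and promoter windows from RefSeq, whose builds differ from that of the files, so coordinates are given for the promoter windows alone, in GRCh38. Protein sequences were not analysed here. Plots were made in matplotlib 3.10.9 (Python 3.11.15).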

Additional observations from a re-analysis of the deposited data

Results flagged for a closer look

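*CDH3* passed the test in opposite directions on different days. It was 0.83 above untreated cells at d7 and 0.15 below them at d20, and the contrast of d20 with d7 itself was -0.98 on the log2 scale (SE 0.0443, limma adjusted p = 8.1e-13). All 3 libraries of d20 lay below all 3 of d7. Without the third d7 library, d7 was 0.90 above untreated cells and the contrast of d20 with d7 was -1.05.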

How the results depend on the processing

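No paired analysis was possible because no column of the table names its replicate. Of 858 log2 fold changes of single cadherins under an alternative, 846 kept their side of the threshold, and their direction where they passed it. Where the threshold was not passed, the direction could change, as for *CDH2* in d7 against d4 (0.13, and -0.09 without the third d7 library). With equal library totals the median log2 fold change against d0 over the genes tested lay between -0.20 and -0.14, and the genes called on d20 went from 4341 higher and 4024 lower to 2661 and 6778 (on d1, from 4174 and 3804 to 2436 and 6692). Quantile normalization gave 3570 and 4959 on d20. With equal totals *CDH1* was then lower on d7 (-0.19, or 0.00 relative to that median) and *CDH3* on d10 (-0.18, or 0.02 relative to it), and quantile normalization gave *CDH3* -0.23 on d10. In d7 against d4, *CDH11* ranged from -0.55 without the third d7 library to 0.56 without the first.

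Equal totals or quantile normalization gave 1 lower cadherin on d1 and 2 on d10, equal totals 1 on d7, and the fit of the compared timepoints alone 1 on d1. With equal totals 50.2% of all genes tested were lower on d1, 49.1% on d7 and 50.5% on d10, so those counts were no more than the background. Quantile normalization gave 4642 lower genes on d1 and 4716 on d10, of 13343 tested. Against d4, leaving out d4 or d7 libraries gave between 1 and 3 higher and between 1 and 2 lower cadherins on d7. Requiring a change of at least 2-fold left 3 higher on d1, 0 lower on d4, d10 and d15, and 1 lower on d20. Under the same rule 0 were lower in d4 against d1 and in d10 against d7, 0 moved in d7 against d4, 0 were higher and 1 was lower in d15 against d10, and 1 was lower in d20 against d15. The share of all genes was not counted under the 2-fold rule or the fit of the compared timepoints, so those counts have no background. Nor was it for left-out libraries other than the third of d7.

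For the lists on d20, equal totals gave 3 higher and 5 lower catenins and linkers (5 lower with quantile normalization). Equal totals also gave 1 higher nectin, 8 lower proteolysis genes and 2 lower other cadherins. With equal totals 19.9% of all genes tested were higher and 50.8% lower on d20. The 2-fold rule left 1 higher catenin or linker, 1 higher and 0 lower nectins, 0 lower repressors, and 1 higher and 1 lower proteolysis gene. DESeq2 gave 1 lower proteolysis gene (3877 lower among all genes on d20), and leaving out libraries between 1 and 2. Without a filter 1 other cadherin was higher and 2 were lower. No share of all genes was counted for the 2-fold rule, left-out libraries or no filter, so those counts have no background.

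Shares on d0 and d20 depended on the denominator. Per transcript length they were 39.4% and 16.1% for *CDH1*, 52.2% and 48.1% for *CDH3*, 8.11% and 20.3% for *CDH13*, 0.162% and 1.65% for *CDH4*, and on d20 4.95% for *CDH2* and 8.92% for *CDH11*. Per coding length, chosen after seeing the data, they were 34.9% and 12.4%, 50.8% and 40.9%, 14.04% and 30.7%, 0.188% and 1.67%, 3.38% and 10.999% in that order. With all CDH-numbered cadherins in the sum they were 35.8% and 13.2% for *CDH1*, 47.8% and 39.9% for *CDH3*, 12.1% and 27.4% for *CDH13*, and on d20 3.60% for *CDH2* and 10.3% for *CDH11*. *CDH4* in d20 against d15 no longer passed without the first d20 library (0.33, adjusted p = 0.06412). The causes were not tested. Depth limits *CDH6* and the d0 level of *CDH11*, both at the floor.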
